A study of Mus musculus with 6 samples.

Results

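The 10 genes described here were near absent from the WT libraries and counted in the Il21r-/- libraries of the series: Lad1, Kcnk13, Ryr2, Ttn, Igsf3, Gbp2b, Rps15a-ps8, Gprc5b, Adgrg1 and Zc3h12c. A gene was taken when it had at most 10 reads in each WT library and a mean of at least 50 reads over the Il21r-/- libraries. These 10 were all the genes that met both limits, of 27179 genes in the table and of 14984 with at most 10 reads in each WT library (0.0667%). The genes were thus selected on the counts of both genotypes, and their difference between genotypes is described below and not tested.

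The libraries were RNA-seq of germinal center (GC) B cells from the spleen of C57BL/6 mice, wild type (WT) or lacking the IL-21 receptor (Il21r-/-, backcrossed onto C57BL/6), immunized with the hapten NP on the carrier KLH in alum. Cells were sorted as B220+ NP+ IgG1+ CD38- and negative for CD138, IgM, IgD and Gr1, with 1 library for each genotype on days 7, 10 and 14 and thus 3 libraries per genotype. The labels give each library as an independent mouse, whereas the methods name several mice per genotype from 2 immunizations, several of them already for the day 7 sort. The sources thus differ on whether a library pools mice, and the immunization of each library is not given. Spread between libraries mixes day with animal. By the methods the mice were irradiated Ly5.1 hosts given WT or Il21r-/- marrow, so that host cells can remain, and the receptor is missing from all blood cells of an Il21r-/- donor and not from B cells alone. Libraries held 21353438 to 27435124 reads counted on genes.

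IL-21 is a cytokine made mainly by follicular helper T cells, and its receptor on B cells pairs with the common gamma chain and signals through JAK kinases and STAT3. In the GC, where B cells divide, mutate their antibody genes and compete for T cell help, this signal is known for sustaining proliferation and the GC program. The 10 genes belong to different families. They code for membrane receptors and channels, a muscle filament protein, a basement membrane protein, an interferon-induced GTPase, an RNA-degrading enzyme and, in 1 case, a pseudogene copy of a ribosomal protein gene.

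The targeted gene was read first. Il21r had 9436, 6470 and 5267 counts in WT and 2424, 3349 and 2807 in Il21r-/- on days 7, 10 and 14, and fell by 1.29 on the log2 scale (SE 0.13, adjusted p = 0.00137, edgeR's quasi-likelihood test with Benjamini-Hochberg adjustment). Il21r-/- reads did not reach 0, and gene counts do not show which exons they came from. Levels are given as CPM, the reads of a gene scaled to the size of its library. Of 12 GC B cell marker genes 0 were at 0 counts, and their summed level was 9003 to 10069 CPM in WT and 9167 to 10885 CPM in Il21r-/-.

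The member with most reads was a pseudogene, so its sequence decides how far its reads can be told from those of its parent. Rps15a-ps8 is a processed pseudogene, an intronless copy of the transcript of Rps15a, a protein of the small ribosomal subunit. GENCODE places it at chr4:53791070-53791456 of GRCm38, on the minus strand. The first 120 bases of the copy (chr4:53791337-53791456, minus strand) are shown with the first 120 bases of the Rps15a coding sequence, and capitals mark the 15 positions at which they differ:

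Rps15a-ps8: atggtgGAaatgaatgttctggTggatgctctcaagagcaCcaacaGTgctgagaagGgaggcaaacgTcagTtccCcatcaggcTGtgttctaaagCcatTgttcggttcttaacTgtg

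Rps15a: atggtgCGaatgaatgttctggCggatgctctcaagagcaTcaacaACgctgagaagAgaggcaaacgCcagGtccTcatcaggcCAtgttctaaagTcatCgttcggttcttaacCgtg

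Over all 387 bases of the copy, 30 differ from Rps15a (92.2% identity), and the longest stretch without a difference is 65 bases. A read of 100 bases, the length used, therefore spans at least 1 difference wherever it lies within the copy, and 0 of the 288 windows of 100 bases in the pseudogene matched another GENCODE transcript exactly. Gbp2b and its adjacent copy Gbp2 likewise had 0 exact windows of this length in common. They were 83.5% identical over the 1736 columns of a local alignment, which covers only part of the 2823 bases of Gbp2b. The longest shared run there was 98 bases, just under the length of a read. Reads from genes outside the annotation, reads with sequencing errors and counted bases of Rps15a-ps8 beyond these 387 (the deposited table counts 720) are not covered by this comparison.

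Of the 9 genes with a promoter window, Gbp2b alone held one of 3 motifs searched on both strands, and that stretch is shown for this reason. The core of the interferon-stimulated response element (ISRE), searched as 2 copies of GAAA with any 2 bases between them, was found as its reverse complement, in capitals, with its first base at position -137 from the RefSeq transcription start. The bases are chr3:142594697-142594796 of GRCm38.p6, plus strand, from RefSeq:

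Gbp2b promoter: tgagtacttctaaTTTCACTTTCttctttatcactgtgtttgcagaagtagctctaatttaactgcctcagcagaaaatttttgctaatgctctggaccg

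Promoter windows, from 250 bases before to 50 bases after a start, were matched for 9 of the 10 genes, Rps15a-ps8 being the exception. The same pattern was present in 3.44% of the 32851 windows of the table. Neither TTCNNNGAA, the palindromic site of STAT factors (8.30% of all windows), nor TATAAA (13.6%) occurred in a window of these 9 genes. A match or its absence describes only these letters in this window.

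**Figure D1:**
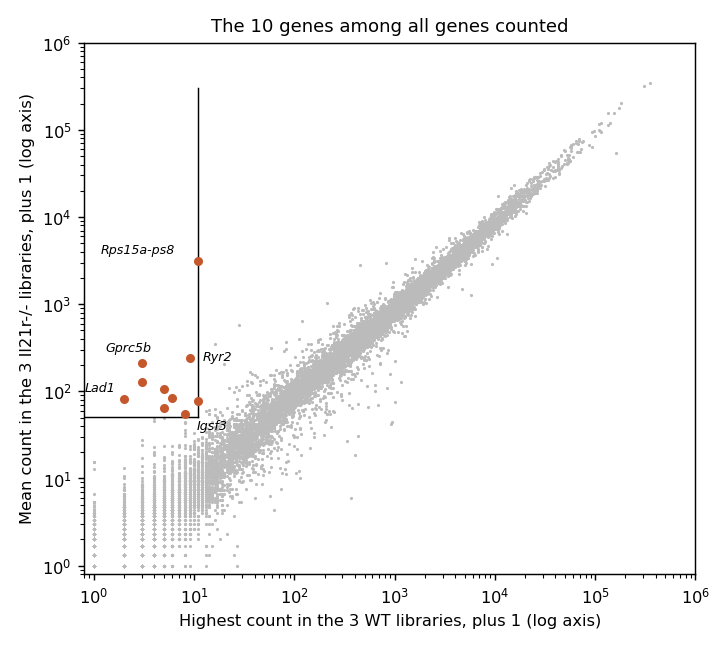
Each grey point is 1 gene of the table, by its highest count in the 3 WT libraries (x axis, plus 1, log scale) and its mean count in the 3 Il21r-/- libraries (y axis, plus 1, log scale). The lines mark the limits of 10 and 50 counts, and the 10 orange genes are all that lie beyond both, with Rps15a-ps8 far above the others.

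The 10 genes lie on 9 chromosomes, and all 10 passed the filter on low expression. Their pooled ratio of Il21r-/- to WT, from summed counts over summed library sizes, ranged from 8.71 to 467 with a median of 42.7. Without the WT day 7 library the median was 82.1, and without the Il21r-/- day 7 library the highest ratio, that of Rps15a-ps8, was 284. Every Il21r-/- library was above every WT library for all 10 genes, which the limits themselves favor, while this held for 10.0% of the 11005 genes tested for expression differences. The test of the genotype effect called 4.52% of those genes higher in Il21r-/-, and nothing is read from it for the 10. Of the 30 values of the 10 genes in WT, 4 were 0 and 18 were at most 3 reads. The intervals below are exact 95% intervals of a ratio of counts. They treat each read as independent, reflect counting error alone and leave out the spread between libraries. Reads were not tagged by molecule, so copies of the same molecule can count more than once.

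The values just inside the limits belonged to Kcnk13, with up to 10 reads in WT, and to Igsf3, with a mean of 54.3 reads in Il21r-/-. Just outside were 9 genes. Serpina3f, Dse, Tcn2 and Cntnap1 missed the first limit, with 12 or 13 reads in their highest WT library. Cd96, Mmp16, Galnt17, Mei1 and Ppm1h missed the second, with means of 42.0 to 48.7 reads in Il21r-/-. Their courses differed too: Dse had 110, 41 and 23 reads in Il21r-/- on days 7, 10 and 14, and Cd96 had 25, 51 and 70. The limits thus did not fall in a gap between genes. With the genotypes exchanged, the rule found 1 gene, Gm1966, with 362, 266 and 166 reads in WT and 5, 9 and 1 in Il21r-/-.

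**Figure D2:**
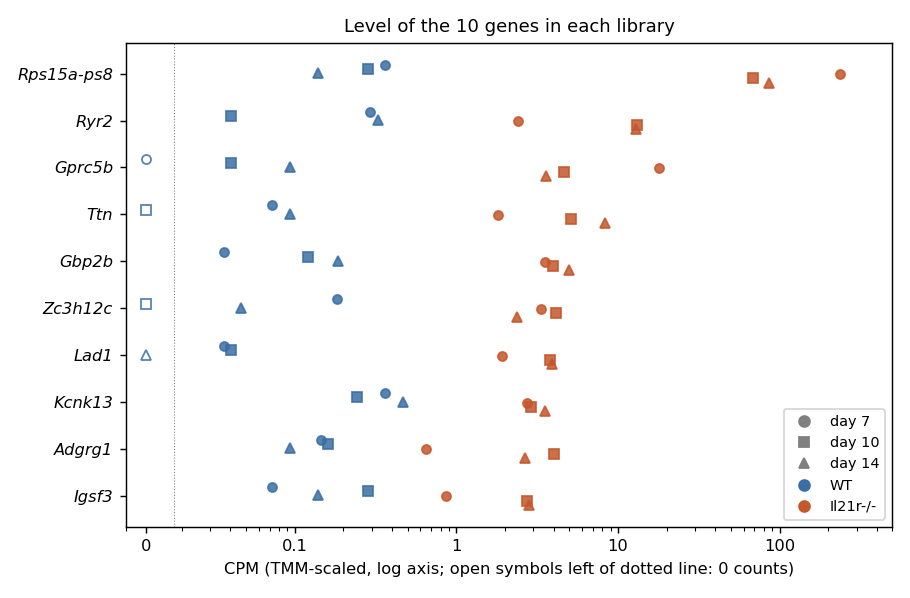
Each symbol is 1 library, by its TMM-scaled CPM on a log axis, with WT in blue, Il21r-/- in orange and the day given by the shape, and open symbols at the left edge stand for 0 counts. For all 10 genes the orange symbols lie to the right of the blue ones, and the spread between days differs from gene to gene.

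Gprc5b, Adgrg1, Igsf3 and Kcnk13 code for proteins of the cell surface. The first, Gprc5b, an orphan receptor of the class C G protein-coupled family (chr7:118972040-118995211), had 0, 1 and 2 counts in WT and 414, 123 and 90 in Il21r-/- on days 7, 10 and 14. The Il21r-/- levels were 17.9, 4.65 and 3.59 CPM, so the day 7 library stood well above the later ones. On day 7 the level was at least 164-fold higher in Il21r-/- than the 3 counts taken as the limit for a library at 0. On day 14 the ratio was 38.6 (10.4 to 323).

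In the GENCODE models the last exons of Gprc5b overlap those of Iqck, on the opposite strand, by 606 bases. By the RefSeq positions the overlap is shorter, since Iqck ends at 118972120 and Gprc5b starts at 118972040. The library kit used does not mark strand, and reads there cannot be told apart. Iqck itself, named here for this overlap, had 7, 8 and 8 counts in WT and 8, 5 and 13 in Il21r-/-, far fewer than Gprc5b in Il21r-/-.

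Adgrg1, also called GPR56, is an adhesion G protein-coupled receptor known from cytotoxic lymphocytes and neural progenitors (chr8:94974756-95014208). It had 4, 4 and 2 counts in WT and 15, 107 and 67 in Il21r-/-. The day 7 library was the lowest of its genotype, with a ratio to WT of 4.47 (1.42 to 18.5), against 25.1 (9.51 to 93.7) on day 10.

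Igsf3, a member of the EWI group of immunoglobulin superfamily proteins (chr3:101376672-101463060), had 2, 7 and 3 counts in WT and 20, 72 and 71 in Il21r-/-. Its pooled ratio was 13.4 (7.48 to 26.5), and 21.4 without the WT day 10 library, which held most of its WT reads. The day 7 library was again the lowest in Il21r-/-.

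Kcnk13, the tandem pore domain potassium channel THIK-1 (chr12:99963149-100062682), had the most reads in WT and the lowest ratio. Its counts were 10, 6 and 10 in WT and 63, 77 and 89 in Il21r-/-, with a pooled ratio of 8.71 (5.79 to 13.6). The 3 Il21r-/- levels, 2.73, 2.91 and 3.55 CPM, lay close together.

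Ryr2 and Ttn are best known from striated muscle. Ryr2, the calcium release channel of the heart muscle's internal stores (chr13:11553099-12106945), had 8, 1 and 7 counts in WT and 56, 347 and 324 in Il21r-/-. The levels in Il21r-/- were 2.43, 13.1 and 12.9 CPM, the highest among the 9 protein-coding members on days 10 and 14. Its pooled ratio was 44.9 (27.5 to 79.0).

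Ttn, which codes for titin, the giant elastic protein of the sarcomere (chr2:76703980-76982557), had 2, 0 and 2 counts in WT and 42, 135 and 208 in Il21r-/-. These reads were spread over 104320 counted exon bases. Per kilobase of exon the level in Il21r-/- was only 0.0174, 0.0489 and 0.0794 RPKM, the lowest of the 10 genes on each day. A high ratio for Ttn, 95.2 (36.9 to 351), thus went with very sparse coverage, and it was 63.2 without the WT day 10 library.

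Lad1 codes for ladinin 1, a protein of the filaments that anchor epithelia to the basement membrane (chr1:135818598-135833341). It had 1, 1 and 0 counts in WT and 44, 101 and 98 in Il21r-/-, or 1.91, 3.82 and 3.90 CPM. On day 14, with WT at 0, the level was at least 28.0-fold higher. The day 7 library was the lowest of its genotype.

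Gbp2b, an interferon-inducible guanylate-binding GTPase (chr3:142594816-142619179), had 1, 3 and 4 counts in WT and 82, 105 and 125 in Il21r-/-. The Il21r-/- libraries stood at 3.55, 3.97 and 4.98 CPM, highest on day 14. The pooled ratio was 38.6 (19.3 to 90.1).

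Zc3h12c, or Regnase-3, belongs to a family of zinc finger proteins that cleave messenger RNA (chr9:52109569-52168730). It had 5, 0 and 1 counts in WT and 77, 109 and 60 in Il21r-/-. On day 10, with WT at 0, it was at least 34.0-fold higher. In Il21r-/- the day 14 library was the lowest, as for Gprc5b.

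Rps15a-ps8 had 10, 7 and 3 counts in WT and 5487, 1800 and 2162 in Il21r-/-, so 1 pseudogene held most of the reads of the whole set. The ratio was 653 (355 to 1364) on day 7, 241 (117 to 600) on day 10 and 618 (211 to 2998) on day 14. The intervals of the 3 days overlap. The deposited table counts 720 exon bases for this gene, whereas the GENCODE model has 387 bases and the RefSeq gene spans 438, so its level per length is not compared with that of other genes.

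Among the protein-coding members the Il21r-/- level per kilobase of exon was highest for Gprc5b, at 1.93 ± 1.77 RPKM (mean ± SD, n = 3), then Gbp2b at 1.48 ± 0.26 and Lad1 at 1.07 ± 0.38. Kcnk13, at 0.98 ± 0.14 RPKM, lay within the spread of Lad1. Adgrg1 (0.64 ± 0.44), Ryr2 (0.56 ± 0.36) and Zc3h12c (0.54 ± 0.14) did not differ beyond their spread. Igsf3 followed with 0.29 ± 0.15 RPKM and Ttn with 0.049 ± 0.031. The first place of Gprc5b rests on the day 7 library, at 3.96 RPKM. On day 10 it stood at 1.03 and on day 14 at 0.792 RPKM, below Gbp2b (1.41 and 1.77) and Lad1 (1.28 and 1.31).

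The selection used the mean over the Il21r-/- libraries and not their order in time. A mean can be met through high single libraries, so the course over days is not independent of the selection. It is described here, and no conclusion for the 10 genes is drawn from the slope tests given further below. With a limit of 50 reads in each Il21r-/- library 6 genes met the rule. Lad1, Ttn, Igsf3 and Adgrg1, with 44, 42, 20 and 15 reads on day 7, met the mean through the later days. In Il21r-/- 8 of the 10 genes were higher on day 10 than on day 7 and 2 were lower. For 5 genes the counting interval of this ratio lay above 1, namely Adgrg1 (6.23, 3.61 to 11.5), Ryr2 (5.41, 4.07 to 7.31), Igsf3 (3.14, 1.89 to 5.45), Ttn (2.81, 1.97 to 4.07) and Lad1 (2.0, 1.39 to 2.92). Of all genes tested, 30.2% had an interval above 1 and 30.3% below 1, between the same libraries, so such intervals excluded 1 for a large share of genes.

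Kcnk13, Gbp2b and Zc3h12c changed less, with day 10 to day 7 ratios of 1.07, 1.12 and 1.24 and intervals that include 1. From day 7 to day 14 the ratio of Gbp2b was 1.40 (1.05 to 1.88), while the intervals of Kcnk13 and Zc3h12c still included 1. Gprc5b and Rps15a-ps8 went the other way, to 0.259 (0.210 to 0.318) and 0.286 (0.271 to 0.302) of the day 7 level. From day 10 to day 14 the ratio of Ttn was 1.62 (1.30 to 2.03) and that of Rps15a-ps8 1.27 (1.19 to 1.35), while Adgrg1 was at 0.660 (0.479 to 0.904) and Zc3h12c at 0.580 (0.416 to 0.802). The genes thus shared the contrast that selected them but not one time course.

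**Figure D3:**
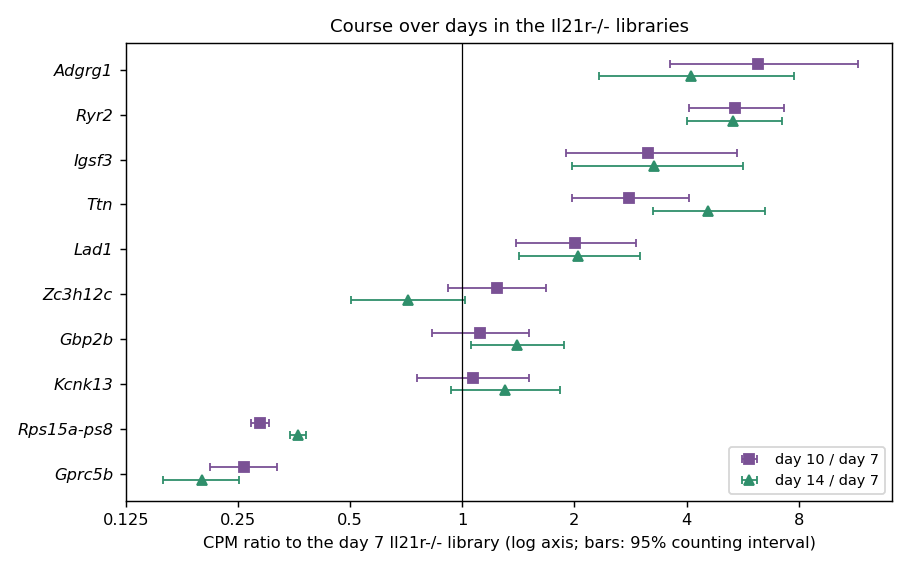
Points give the CPM of the day 10 (squares) and day 14 (triangles) Il21r-/- libraries as a ratio to the day 7 library, on a log axis, with 95% counting intervals as bars and the line at a ratio of 1. Adgrg1, Ryr2, Igsf3, Ttn and Lad1 lie to the right of the line at both days, and Gprc5b and Rps15a-ps8 lie to the left. The others are nearer to it, with the day 14 interval of Gbp2b above 1.

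With 1 library per day, animals and days cannot be told apart, and a linear slope over days was tested with the spread shared across all 6 libraries. For the 10 genes this test reuses the Il21r-/- counts of the selection, so their p-values and counts of calls are not evidence of a slope. By edgeR's quasi-likelihood test with Benjamini-Hochberg adjustment, 0 of the 10 genes and 0 of 11005 genes (0%) had a slope within Il21r-/- past an adjusted p of 0.05. At an unadjusted p under 0.05 there were 3 of the 10 genes and 7.62% of all genes. These were Gprc5b, at -0.33 log2 units per day (SE 0.07, adjusted p = 0.266, edgeR), Ttn, at 0.29 (SE 0.08, adjusted p = 0.358, edgeR), and Rps15a-ps8, at -0.20 (SE 0.07, adjusted p = 0.532, edgeR).

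The count over all genes depended on the fit, at 70 genes with DESeq2's Wald test and 108 with edgeR when every gene with a read was kept. The latter fit called Gprc5b (adjusted p = 0.0107, edgeR) and Ttn (adjusted p = 0.0327, edgeR), and the DESeq2 fit none of the 10. Leaving out 1 library at a time, which left 1 residual degree of freedom, gave 21 to 169 genes. Gprc5b and Rps15a-ps8 were then each called in 5 of 6 such fits by edgeR, all but that without the Il21r-/- day 7 library. Ryr2 and Ttn were each called in 4 of 6, and Adgrg1 in 1 of 5. Leaving out a WT library hardly moved the Il21r-/- slope, which stayed near -0.33 log2 units per day for Gprc5b and -0.20 for Rps15a-ps8. Calls made there thus rest on a smaller estimate of spread. Without an Il21r-/- library the slope rests on fewer days. These tallies therefore add no evidence of a slope to the full fit. The slopes of the genotypes differed for 0 of the 10 genes and 0 of all genes (0%), with 0 of the 10 and 1.07% of all at an unadjusted p under 0.05. For the 10 genes this says little, since their WT slopes rest on at most 10 counts a library (SE of the slope difference up to 0.36 log2 units per day). DESeq2's Wald test also gave 0 genes.

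Rps15a-ps8 was then set beside Rps15a and the other copies in the table. Rps15a itself, on chr7:118104374-118116147, had 29236, 23562 and 28791 counts in WT and 27773, 28559 and 43486 in Il21r-/-, a log2 difference of 0.25 (SE 0.15, adjusted p = 0.386, edgeR). Of the 5 copies tested other than Rps15a-ps8, Rps15a included, 0 were called by edgeR or by DESeq2, against 5.92% of all genes by edgeR for the genotype effect over 3 days, and 1 had an unadjusted p under 0.05. With day as a block 3 were called, all higher in Il21r-/-: Rps15a (adjusted p = 0.0172, edgeR), Rps15a-ps5 and Rps15a-ps6, against 22.9% of all genes. Of the reads on Rps15a and all its copies, Rps15a-ps8 took 10.4%, 3.39% and 2.69% in Il21r-/- on days 7, 10 and 14, but at most 0.0188% in a WT library.

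A pair of other copies, Rps15a-ps2 on chr19:28742123-28742568 and Rps15a-ps4 on chr4:132219893-132220589, were singled out after their values were seen. Rps15a-ps2 had 3958, 3218 and 4276 counts in WT and 1535, 3430 and 5440 in Il21r-/-. Rps15a-ps4 had 4045, 3083 and 3106 in WT and 1273, 3027 and 4504 in Il21r-/-. Both were lowest in the day 7 Il21r-/- library, the one in which Rps15a-ps8 was highest.

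Together they took 15.1%, 14.7% and 14.1% of the reads on all copies in WT and 5.33%, 12.1% and 12.4% in Il21r-/-. With Rps15a-ps8 added, their share was 15.1%, 14.7% and 14.1% in WT and 15.7%, 15.5% and 15.1% in Il21r-/-. As a share of the reads on all copies, the sum of these 3 thus varied less between libraries than each of them did. In counts the sum ran from 6308 in WT day 10 to 12106 in Il21r-/- day 14. The pair was picked after its values were seen, which itself favors a steadier sum. Rps15a-ps8 is 90.4% identical to Rps15a-ps2 and 91.2% to Rps15a-ps4, and how reads were shared among copies in the counting was not tested, since the settings for reads with several matches are not given in the sources used here.

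**Figure D4:**
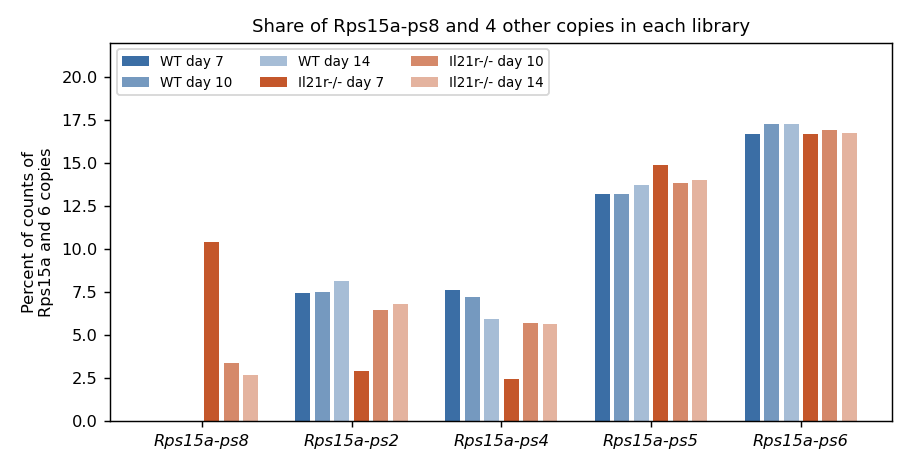
Bars give the percent of all reads on Rps15a and its 6 copies in the table that fell on Rps15a-ps8 and on 4 other copies, from 0, for each library, with WT in blue, Il21r-/- in orange and later days in paler shades. Rps15a-ps8 is visible only in Il21r-/-, tallest on day 7 at 10.4%, and in that library the bars of Rps15a-ps2 and Rps15a-ps4 are the shortest.

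Genes next to the 10 were read in the genotype effect, which was not used to choose these neighbours. The 2 nearest tested genes on each side of each member gave 40 genes. Of these, 6 were called in the genotype effect over 3 days (15.0%), against 5.92% of all genes tested, with 5 higher in Il21r-/- (4.52% of all genes) and 1 higher in WT (1.4%). Gbp3, next to Gbp2b, is among these 6 calls and is counted again in the families below, so the tallies are not separate. The median log2 difference of the 40 was 0.11, and that of all genes 0.01. With day fitted as a block, 13 of the 40 were called, 8 higher in Il21r-/- and 5 in WT, against 22.9% of all genes. Without the WT day 14 library 0 were called by edgeR (9 at an unadjusted p under 0.05), without WT day 10 4, without the Il21r-/- day 7 library 3, without Il21r-/- day 14 4, and without Il21r-/- day 10 15.

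Phlda3, a pleckstrin homology protein that restrains AKT and is a target of p53, lies 49.5 kb from Lad1. It had 12, 3 and 16 counts in WT and 15, 46 and 88 in Il21r-/-, a log2 difference of 2.06 (SE 0.46, adjusted p = 0.0359, edgeR). The groups overlap, since the Il21r-/- day 7 library lay below that of WT day 14. The call was lost without WT day 10 (adjusted p = 0.0647), WT day 14 (0.270) or Il21r-/- day 7 (0.0533), all by edgeR.

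Prkra, which codes for an activator of the kinase PKR, lies 55.8 kb from Ttn. It had 36, 24 and 29 counts in WT and 67, 69 and 114 in Il21r-/- and rose by 1.44 on the log2 scale (SE 0.26, adjusted p = 0.0156, edgeR). Every Il21r-/- library was above every WT library. The call was lost without WT day 14 (adjusted p = 0.143), Il21r-/- day 7 (0.0682) or Il21r-/- day 14 (0.0894), all by edgeR.

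Zmynd11, a chromatin reader 1787 kb from Ryr2, had 126, 44 and 30 counts in WT and 233, 198 and 115 in Il21r-/- and rose by 1.59 (SE 0.23, adjusted p = 0.00547, edgeR). At that distance it is a neighbour only in rank. Rdx, which codes for radixin, a linker of membrane and actin 20.8 kb from Zc3h12c, rose by 0.95 (SE 0.14, adjusted p = 0.00702, edgeR). Without WT day 14 both calls were lost (adjusted p = 0.0551 and 0.0928, edgeR).

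Efcab11, an EF-hand protein gene 78.7 kb from Kcnk13, was the neighbour that was lower in Il21r-/-. It had 296, 278 and 274 counts in WT and 133, 175 and 221 in Il21r-/- and fell by 0.73 on the log2 scale (SE 0.14, adjusted p = 0.0207, edgeR). The call was lost without any 1 of the WT libraries (adjusted p = 0.0827, 0.0687 and 0.126 without days 7, 10 and 14) or Il21r-/- day 7 (0.0727), all by edgeR. Of the 16 neighbours of Igsf3, Rps15a-ps8, Gprc5b and Adgrg1, 0 were called by edgeR or DESeq2 and 2 had an unadjusted p under 0.05. With day as a block 2 of the 16 were called by edgeR, Cd2 higher in Il21r-/- and Knop1 higher in WT, both named after their values were seen.

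**Figure D5:**
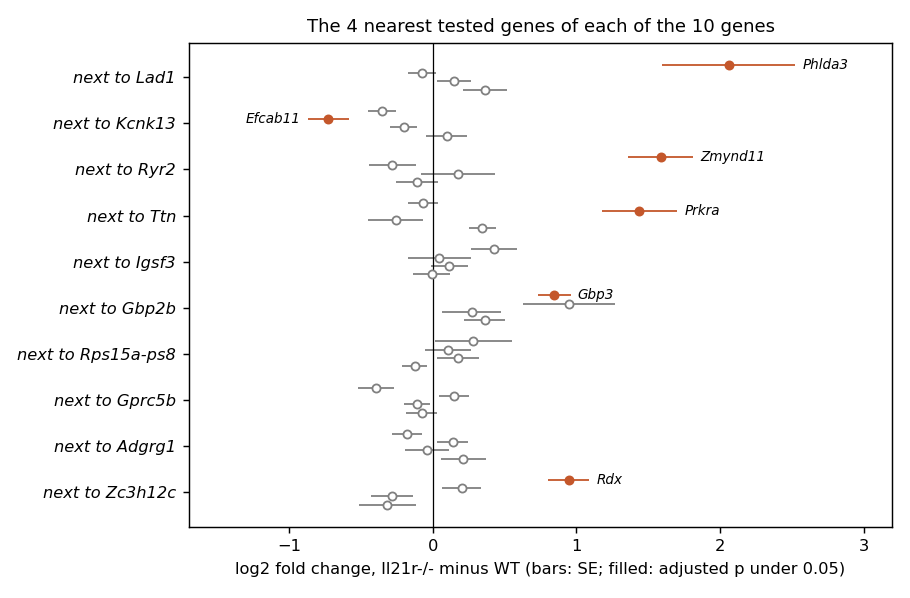
Points give the log2 difference between genotypes, Il21r-/- minus WT, of the 4 nearest tested genes of each of the 10 genes, with the SE as bars and filled symbols for an adjusted p under 0.05 by edgeR. The 6 filled symbols are next to 6 different genes, and only that of Efcab11 lies below 0.

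Gprc5b lies on the chromosome of Il21r, 6.61 Mb from it, and Rps15a 7.49 Mb from it. Gm1966, the gene of the exchanged rule, is on the same chromosome at 19.0 Mb. The other 9 members are on other chromosomes.

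Families and pathways of the members were then read in the same fit, leaving the members out. Of 159 such genes in 10 lists, 50 passed the expression filter, and 6 of these were called, all higher in Il21r-/- (12%, against 4.52% of all genes in this direction). Gbp3 among them was also counted as a neighbour above. With day as a block 21 family genes were called, of which 17 rose and 4 fell in Il21r-/-, against 22.9% of all genes. Without the WT day 14 library 0 were called by edgeR, with 11 at an unadjusted p under 0.05.

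The guanylate-binding proteins, GTPases of cell-autonomous defense that interferon induces, had 3 of 6 tested genes called, all higher in Il21r-/-, and a median log2 difference of 0.77. Gbp8 had 36, 33 and 34 counts in WT and 71, 147 and 158 in Il21r-/- and rose by 1.78 (SE 0.24, adjusted p = 0.00407, edgeR). Gbp3, 21.6 kb from Gbp2b, had 353, 373 and 353 counts in WT and 513, 679 and 807 in Il21r-/- and rose by 0.84 (SE 0.12, adjusted p = 0.00461, edgeR). Gbp9 rose by 0.70 (SE 0.12, adjusted p = 0.0136, edgeR). Without WT day 14 all 3 calls were lost (adjusted p = 0.0545 for Gbp8, 0.0747 for Gbp3 and 0.163 for Gbp9, edgeR), and that of Gbp9 also without WT day 7 (0.0504) or Il21r-/- day 14 (0.0554).

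The nearest copy, Gbp2, begins 1.48 kb past the end of Gbp2b. It had 228, 257 and 126 counts in WT and 235, 232 and 262 in Il21r-/-, a log2 difference of 0.27 (SE 0.20, adjusted p = 0.494, edgeR). The genotypes overlap. Gbp2b was near 0 in WT while this adjacent copy was counted in every library.

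Among genes of keratin filaments, desmosomes and basement membrane anchors, related to Lad1, 2 of 5 tested were called. Ppl, which codes for the plakin periplakin, had 68, 30 and 27 counts in WT and 124, 157 and 70 in Il21r-/- and rose by 1.52 (SE 0.26, adjusted p = 0.0124, edgeR). Lamb3, a laminin chain, rose by 1.09 (SE 0.26, adjusted p = 0.0461, edgeR), a call that DESeq2 did not make (adjusted p = 0.101) and that was lost in every fit without 1 library except that without Il21r-/- day 10 (adjusted p up to 0.267, edgeR). Of the adhesion G protein-coupled receptors 1 of 4 was called, Adgre5 or CD97, which rose by 0.86 (SE 0.15, adjusted p = 0.0114, edgeR). Without WT day 14 the adjusted p was 0.0731 for Ppl and 0.133 for Adgre5 by edgeR.

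The lists around Ryr2 and Ttn held no call by edgeR. Of 43 striated muscle and sarcomere genes counted, 8 passed the filter, 0 were called by edgeR or DESeq2, and 2 had an unadjusted p under 0.05, with a median of -0.14. Of 16 tested genes of calcium release and stores 0 were called by edgeR, 3 had an unadjusted p under 0.05, and DESeq2 called 1, Ryr1. Among the potassium channels related to Kcnk13, the Regnase family and the EWI proteins, 0 of 2 were called in each list by edgeR, with 1, 0 and 1 at an unadjusted p under 0.05, and DESeq2 called only Kcnk6. Of the GPRC5 genes other than Gprc5b, 0 passed the filter. With day as a block edgeR called 2 of the 8 muscle genes, 1 in each direction, 3 of the 16 calcium genes, Ryr1 among them (adjusted p = 6.58e-05, edgeR), Kcnk6 (adjusted p = 0.00113, edgeR) and 1 EWI gene, which was lower in Il21r-/-.

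Marker genes of other cell types were read beside these results, and their part in them was not tested. Of 11 striated muscle markers 6 were at 0 in every library (Myh6, Myh7, Tnnt2, Mb, Des and Actn2). The list summed to 2.18 to 2.44 CPM in WT and 2.04 to 2.87 in Il21r-/-, most of it Acta1 (2.02 to 2.23 and 1.73 to 2.75). Ryr2 alone reached 13.1 CPM, but CPM is not corrected for gene length. With 16813 counted exon bases, Ryr2 stood at 0.144 to 0.780 RPKM in Il21r-/-, so its CPM is not compared with that of the markers. Epithelial markers summed to 1.35 to 1.39 CPM in WT and 1.39 to 2.43 in Il21r-/-, with Krt14 at 0. All 5 basophil and mast cell markers were at 0.

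The 7 natural killer markers summed to 0.444 to 1.27 CPM in WT and 1.71 to 2.08 in Il21r-/-, with Ncr1 at 0 and Nkg7, Eomes and Klrd1 at no more than 3 counts in any library. The 7 T cell markers summed to 3.49 to 8.51 CPM in WT and 8.61 to 13.9 in Il21r-/-, with Cd3e and Cd8a at no more than 3 counts. Cd5 and Lat were called higher in Il21r-/- (2 of 2 tested), by 2.10 and 0.87 on the log2 scale. Cd5 and Lat carried the T list, and the other 5 genes summed to 0.525 to 0.883 CPM in WT and 0.693 to 1.04 in Il21r-/-. Prf1 alone stood at 0.282 to 0.764 CPM in WT and 1.04 to 1.47 in Il21r-/-, and the other 6 natural killer markers at 0.161 to 0.511 and 0.492 to 0.677. Without these genes both lists overlapped between genotypes. Adgrg1 alone stood at 0.650 to 4.05 CPM in Il21r-/-.

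All 6 markers of naive or memory B cells were tested and 4 were called, against 5.92% of all genes. Fcer2a and Ccr6 rose in Il21r-/- by 1.54 and 1.33 on the log2 scale, and Ighm was lower, at -0.48. The remaining called gene is not reported here. Cd38 and Ighd had no call (adjusted p = 0.448 and 0.840, edgeR). These 6 markers summed to 424 to 924 CPM in WT and 758 to 1176 in Il21r-/-, with overlap. Of 4 plasma cell markers tested, Xbp1 was called higher in Il21r-/- and Prdm1 lower. The plasma cell list of 6 summed to 2505 to 2719 CPM in WT and 2753 to 3594 in Il21r-/-. Most of this was Jchain, at 2266 to 2497 CPM in WT and 2444 to 3289 in Il21r-/-, with overlap and no call (adjusted p = 0.298, edgeR). Irf4 had a higher mean in Il21r-/- without a call, but its Il21r-/- day 7 library (21.4 CPM) lay below every WT library (21.5 to 22.5 CPM). Sdc1 and Tnfrsf17, under the filter, had lower means in Il21r-/- (0.428 and 0.279 CPM) than in WT (0.804 and 0.541). In these bulk libraries more cells of a type and more RNA per cell cannot be told apart. Myeloid (2.50 to 6.55 CPM in WT, 2.61 to 8.79 in Il21r-/-), erythroid (10.1 to 18.9, 4.92 to 33.7) and endothelial (1.91 to 2.40, 1.40 to 2.08) markers overlapped between genotypes. Stromal markers summed to 0 to 0.202 CPM in WT and 0.239 to 0.433 in Il21r-/-, without overlap but at the floor of counting. Of these 7 genes 4 were at 0 in every library, and Cxcl12 and Pdgfrb reached at most 6 and 7 counts. Among single genes tested, 10.0% had every Il21r-/- library above every WT library.

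The genes whose log2 CPM over the 6 libraries was most like the mean of the 10 were Ighe (Pearson r = 0.994), Pdia4 (0.994), Niban1 (0.992), Smim3 (0.992) and Ccl22 (0.991). With 6 libraries that fall into 2 genotypes, such a correlation mainly states that a gene separates the genotypes with little spread. Ighe, the constant region of the IgE heavy chain, had 446, 301 and 386 counts in WT and 2451, 3227 and 2655 in Il21r-/-. Ccl22, a chemokine that binds CCR4, had 27, 12 and 24 in WT and 409, 824 and 500 in Il21r-/-. Pdia4, a disulfide isomerase of the endoplasmic reticulum, spanned far less, from 957 to 1184 counts in WT and from 1314 to 1555 in Il21r-/-.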

How the data were processed

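RNA-seq gave 6 libraries, 1 per genotype and day. The authors aligned single-end reads of 100 bases to mm10 with Rsubread and counted them with featureCounts on its inbuilt RefSeq genes; base calling used CASAVA 1.8.2 per the submitters' processing notes. Strand and multi-mapping settings are not given in the sources used here. The deposited values were raw read counts by gene, and the table matched all 6 single-library files. Symbols came from RefSeq for 25275 of 27179 genes and from GENCODE for 18, and 1886 had none.

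Counts were fitted with edgeR 4.0.16 (R 4.3.3) after leaving out Y-linked genes, Xist, Ig variable genes and genes with aveLogCPM under 0, with TMM factors, robust dispersions, and genotype plus linear day as terms (3 residual degrees of freedom, 2 with slopes per genotype). P-values were adjusted by the Benjamini-Hochberg method across 11005 genes, with a threshold of 0.05. CPM and RPKM were computed here on TMM-scaled library sizes. The procedure was tested on simulated data with a single dispersion and no variation shared by day, so that test does not cover the shared days of these libraries. Because replicates are days, p-values measure the spread between these libraries only.

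Day, given by the labels, is shared by 1 library of each genotype: deviations from genotype means correlated with r = 0.640, 0.413 and 0.645 on days 7, 10 and 14 across genes, which are not independent. The alternatives were DESeq2 1.42.0, its size factors, total counts, other filters and limits, day as a block, and leaving out each library.

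The members and lists were chosen with earlier results of these data known. Named singly were the 10 genes, Il21r, Rps15a, Gbp2, up to 6 called genes per list (largest change first), the 5 genes most like the members' mean, genes just outside the limits, markers at or near 0, and those said to be chosen after their values were seen. A marker of naive or memory B cells is not reported here. Called marker genes, other marker genes named beside them and Gm1966 were also named after their values were seen.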

Additional observations from a re-analysis of the deposited data

How the results depend on the processing

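The median log2 ratio of the 10 genes was 5.42, 5.41 with DESeq2's size factors and 5.37 with total counts, and ranged from 5.17 to 6.36 without single libraries. By the log2 ratio of single genes, 3 moved by more than the spread between days: Zc3h12c to 7.25 without WT day 7, Igsf3 to 4.42 without WT day 10 and Lad1 to 6.41 without WT day 14. The number of genes meeting the rule moved with its limits, to 6 with at most 5 counts in WT, 21 with at most 20, and 6 with at least 50 in each Il21r-/- library. The genotype effect called 651 genes, 1028 with every gene with a read kept, 2519 with day as a replicate block, and 136 to 2138 without single libraries (136 without WT day 14, 2138 without Il21r-/- day 10). All 11 genes called in the neighbour and family lists were also called with the block, which moved these counts from 6 to 13 (neighbours) and from 6 to 21 (families). Keeping every gene with a read moved the family count to 11. Without single libraries, neighbour calls ranged from 0 to 15 and family calls from 0 to 16. Calls of a slope in Il21r-/- went from 0 to 108 with all genes, to 70 with DESeq2, and to between 21 and 169 without single libraries. Among the members' slopes in log2 units per day, those of Ryr2, Rps15a-ps8 and Adgrg1 changed sign without the Il21r-/- day 7 library, and that of Zc3h12c without the Il21r-/- day 14 library. Without single libraries they ranged from -0.00082 to 0.80 for Ryr2, from -0.61 to 0.090 for Rps15a-ps8, from -0.14 to 0.87 for Adgrg1 and from -0.19 to 0.091 for Zc3h12c. The share of genotype calls higher in Il21r-/- was 76.3%, and 59.2% with the block. With a lone library left per day, its spread is assumed to be that of the others. The causes were not tested. Counts of 0 to 10 in WT limit every ratio.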
